A study of Bos taurus with 129 samples.

Results

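Type I interferon-stimulated genes were followed in the whole blood of beef steers over the first 60 days after arrival at a feeding facility. The set was a list of 39 symbols, and the members were the genes of the count table that carried one of these symbols. Of the 39, 38 were found among the 32395 genes of the table. BST2 had no gene of that symbol, and OAS1Z had 0 counts in every library, so 37 members were tested. The level of the set in a library, called the module mean, was the mean over these 37 members of log2 CPM, where CPM are counts per 1000000 counts of a library, with library sizes scaled by TMM (trimmed mean of M-values) factors, with a prior count of 2.

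Libraries came from 26 steers, 59 from healthy cattle and 70 from diseased cattle, with bleeds on day 0 and on days 13, 28, 45 and 60 but for AAC animal 48 at day 13, and held 31613545 to 61692136 counts each (median 44268685). Feed held copper, cobalt, manganese and zinc as amino acid complexes (AAC, 8 steers), the same with an oral mineral drench before shipment, again on day 0 and alongside treatment of sick animals (COMBO, 7 steers), or as sulfates (INR, 11 steers). By disease label 12 were healthy (4 for each supplement) and 14 had bovine respiratory disease (BRD), namely 4 of AAC, 3 of COMBO and 7 of INR, and the day of diagnosis was not given in the sources used here. All steers had been hauled over a long distance, arrived the day before day 0, received a vaccine against respiratory viruses on day 0 and again between the day 13 and day 28 samplings, and were rotated between pens, so no group was free of transport or vaccine. Whether the day 0 blood was drawn before or after the vaccine was not stated in the sources used here. In whole blood, a lower level of a transcript from fewer cells of a type and from less RNA per cell cannot be told apart.

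Type I interferons are cytokines secreted by cells that sense viral nucleic acid. They bind the receptor IFNAR1 and IFNAR2, whose kinases JAK1 and TYK2 phosphorylate STAT2, which acts with IRF9 in the complex that switches on interferon-stimulated genes. The products include more sensors and transcription factors, the ubiquitin-like modifier ISG15 and its enzymes, and effectors that block viral entry, translation or release, and in blood they are read as a record of recent interferon exposure.

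The set was highest and most variable at day 0. The module mean was 7.00 ± 0.93 at day 0 (SD, n = 26), with a lowest value of 5.73, a median of 6.86 and a highest of 9.03. At day 13 it was 6.69 ± 0.66 (n = 25, 5.66 to 8.83) and at day 28 it was 6.37 ± 0.51 (n = 26, 5.70 to 8.06). At day 45 it was 6.55 ± 0.68 (5.78 to 8.39) and at day 60 it was 6.27 ± 0.51 (5.63 to 7.38). The lower ends of the days lay close together and the upper ends did not, so the days overlapped over most of their range. Across all libraries the module mean spanned 3.40 log2 units, a 10.6-fold range, and the 7 libraries above 8 came from 5 animals.

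**Figure D1:**
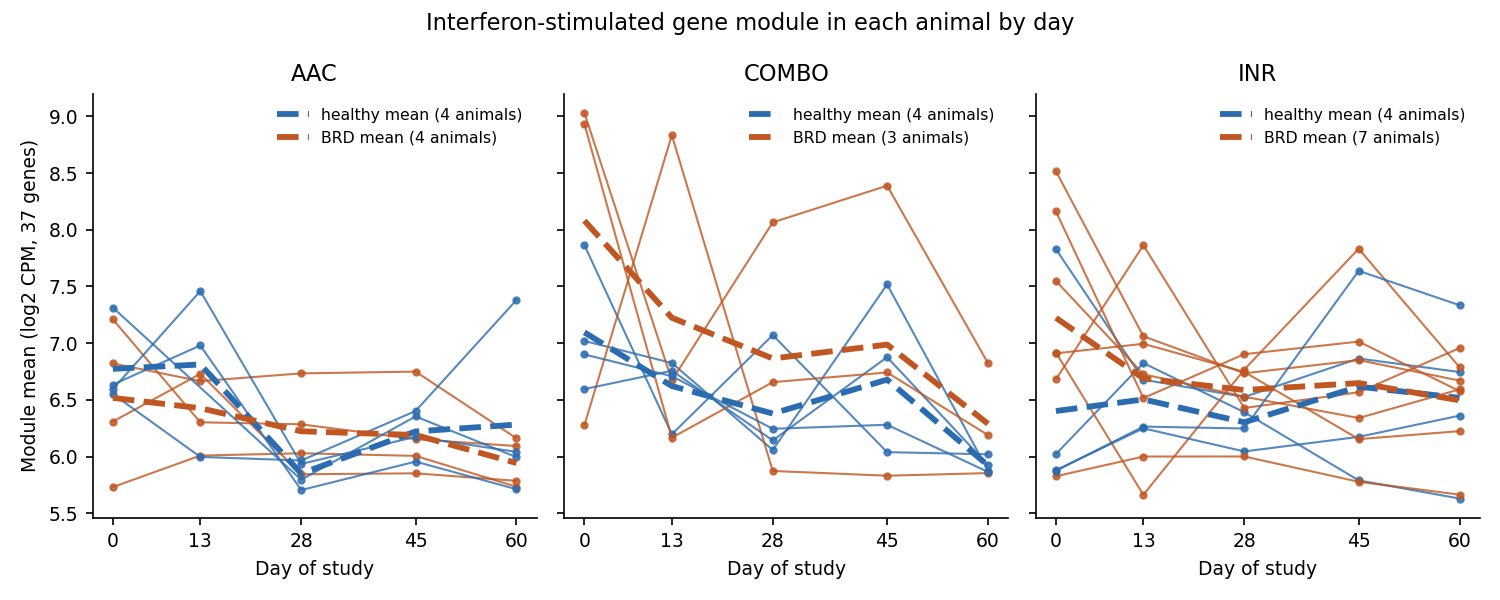
Module mean (mean log2 CPM of the 37 tested members, y axis) against day of study (x axis), with 1 panel for each supplement, 1 thin line for each animal and dashed lines for the mean of each disease label. The highest points are BRD cattle of COMBO, at 9.03 and 8.93 on day 0 and 8.83 on day 13, and single animals cross the means on later days.

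Steers differed more from day to day than from each other. The SD of the animals' own means was 0.419, against an SD of 0.649 among the libraries of an animal, and each of the 37 members also had the smaller SD between animals. The range of the module mean within an animal had a median of 1.36 log2 units, from 0.298 to 3.00. Day 0 was the highest day of 11 animals (4 healthy and 7 BRD), day 13 of 7, day 45 of 4, and days 28 and 60 of 2 each. The lowest day was day 60 in 10 animals and day 28 in 6.

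From day 0 to day 28, most members fell. The test was edgeR's quasi-likelihood F-test with each animal as a block, adjusted by Benjamini-Hochberg over the 18937 genes tested, and a gene was called below an adjusted p of 0.10. Of the 37 members 33 were called lower and 0 higher, with a median log2 fold change of -0.74 (from -1.71 to 0.14), while 17.3% of all genes tested were called lower and the median over all of them was 0.01. The module mean was lower at day 28 than at day 0 in 21 of 26 animals, by a mean of -0.62 ± 0.68 (SD). At day 60 against the same day 0 libraries 33 members were again called lower and 0 higher, with a median log2 fold change of -0.76, against 15.9% of all genes. At day 45 the count was 24 lower and 0 higher, with a median of -0.56, against 14.6% of all genes. Because the 3 comparisons share the day 0 libraries, their counts are not independent of one another.

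**Figure D2:**
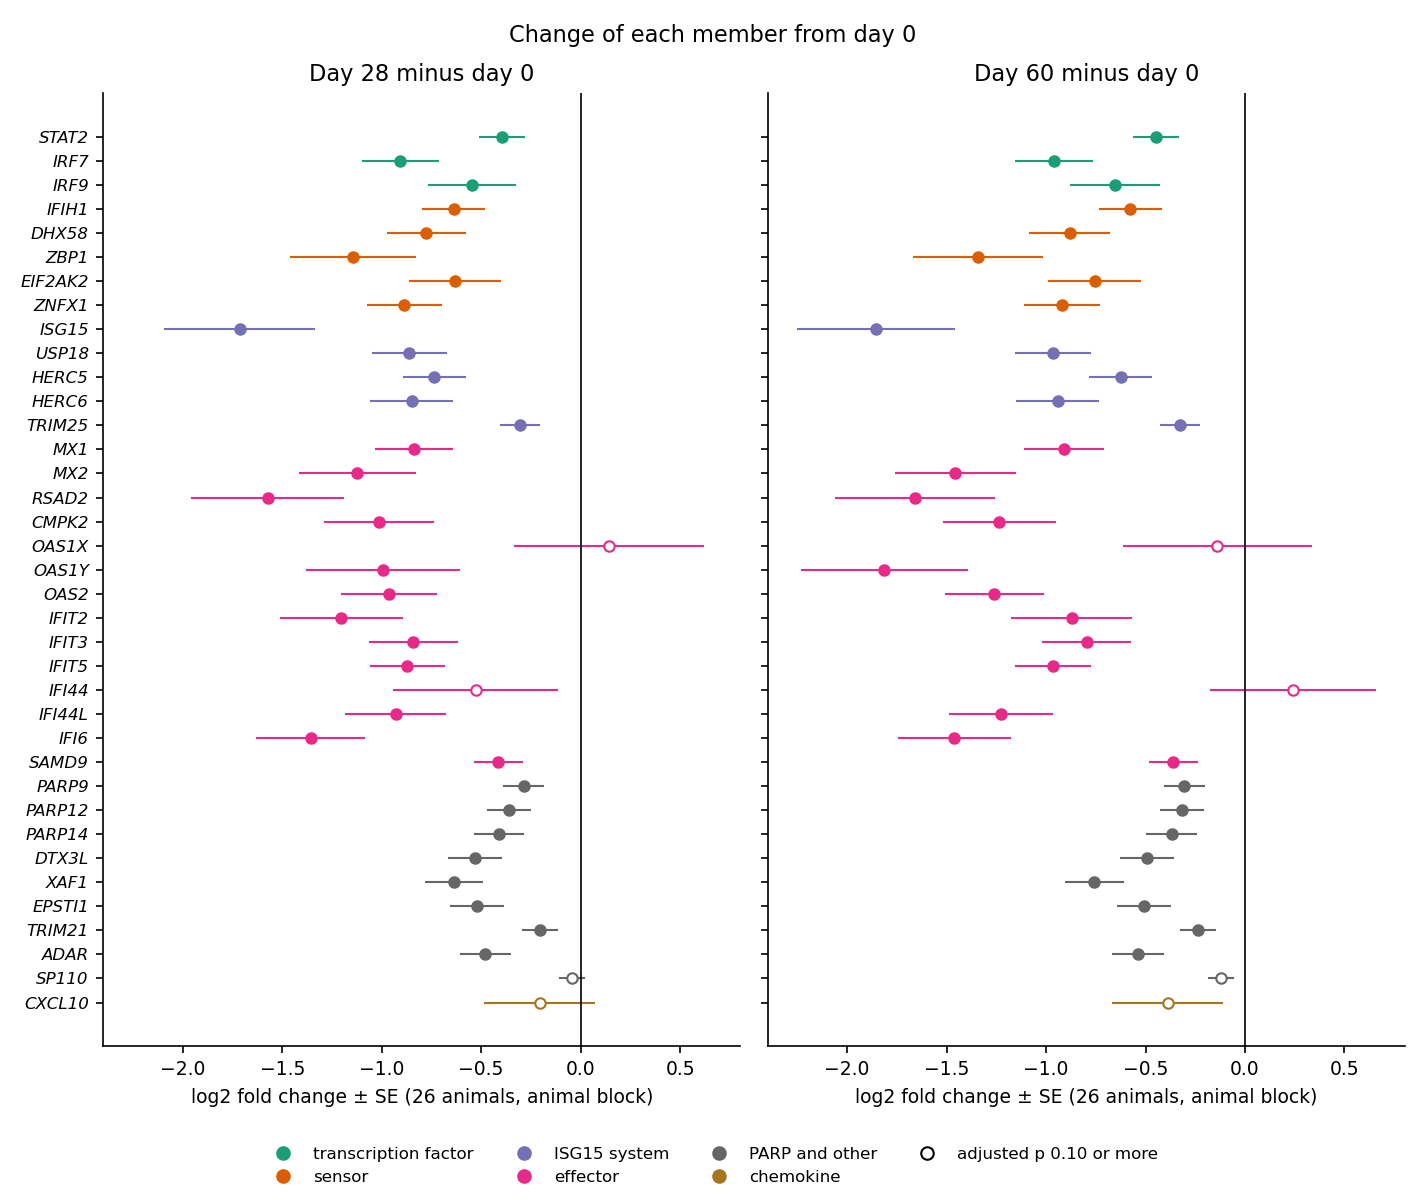
Log2 fold change (x axis) from day 0 to day 28 (left) and to day 60 (right) for each of the 37 members (y axis, coloured by role), with bars of 1 SE and filled points for an adjusted p below 0.10 in edgeR. Points lie left of 0 for 36 of 37 members at each day, and ISG15 lies farthest left at both.

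All 3 transcription factors were lower at days 28 and 60. IRF7, which amplifies interferon production and is itself induced by interferon, ranged from 43.6 to 742 CPM at day 0 (median 110.03), from 43.2 to 234.5 at day 28 (median 67.9) and from 39.99 to 130.2 at day 60 (median 62.9). Its lowest values hardly differed between days, and its highest value was lower at each of the later days shown. IRF7 fell by 0.91 ± 0.19 (log2, SE) at day 28 (edgeR adjusted p = 0.000141) and was lower in 21 of 26 animals. STAT2, which carries the receptor's signal to the nucleus, had medians of 225 CPM at day 0 (139.7 to 573), 176.4 at day 28 (122.7 to 385) and 175.2 at day 60 (98.1 to 247). It fell by 0.40 ± 0.12 at day 28, the smallest change of the 3 factors, with an edgeR adjusted p of 0.0058. IRF9, which gives that complex its DNA contact, fell by 0.55 ± 0.22 in 18 of 26 animals (edgeR adjusted p = 0.0534). At day 45, IRF7 alone of these 3 was called.

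The 5 sensors and RNA-binding antiviral proteins were called lower at days 28, 45 and 60. ZBP1, which senses left-handed nucleic acid and can start cell death, ranged from 54.85 to 3103 CPM at day 0 (median 176.6), from 56.2 to 1178 at day 28 (median 122.04) and from 45.2 to 469 at day 60 (median 87.3). The top of its range differed far more between days than the bottom. ZBP1 fell by 1.14 ± 0.32 at day 28 (edgeR adjusted p = 0.00348). ZNFX1, a helicase that recognises viral RNA early, was lower in 23 of 26 animals at day 28 and fell by 0.89 ± 0.19 (edgeR adjusted p = 0.000136). IFIH1 (MDA5) and DHX58 (LGP2), cytosolic sensors of double-stranded RNA, fell by 0.64 ± 0.16 and 0.77 ± 0.20. EIF2AK2 (PKR), the kinase that halts translation on double-stranded RNA, fell by 0.63 ± 0.23 with an edgeR adjusted p of 0.0308.

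Of the ISG15 system 5 of 5 members were called lower at days 28 and 60, and 4 of 5 at day 45, without TRIM25 (-0.10 ± 0.10, edgeR adjusted p = 0.515). ISG15, the modifier itself, ranged from 18.1 to 2252 CPM at day 0 with a median of 136.4. At day 28 it ranged from 10.9 to 632 (median 50.1) and at day 60 from 10.97 to 253.5 (median 36.7). The ranges overlapped at every day, and the bottom, the median and the top were all lower than at day 0. ISG15 fell by 1.71 ± 0.38 at day 28 (3.28-fold lower, edgeR adjusted p = 0.000237) and was lower in 20 of 26 animals. USP18, the protease that removes ISG15 from its targets and dampens the receptor, had medians of 67.97 CPM at day 0 (33.19 to 414), 47.1 at day 28 (29.9 to 182) and 40.95 at day 60 (31.7 to 91). It fell by 0.86 ± 0.19 at day 28 in 22 of 26 animals (edgeR adjusted p = 2e-04). The ligase HERC5 and its relative HERC6 fell by 0.74 ± 0.16 and 0.85 ± 0.21, each in 22 of 26 animals, and TRIM25, an E3 ligase that acts on the RNA sensor RIG-I, fell by 0.30 ± 0.10 (edgeR adjusted p = 0.0137).

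Among the 14 antiviral effectors 12 were called lower at days 28 and 60, and 11 at day 45. RSAD2 (viperin), which makes a chain-terminating nucleotide, ranged from 22.8 to 1731 CPM at day 0 (median 82.6), from 15.15 to 504 at day 28 (median 50.8) and from 12.5 to 286 at day 60 (median 33.5). IFI6, an endoplasmic reticulum and mitochondrial protein that limits viral replication, ranged from 17.38 to 608 CPM at day 0 (median 82.01), from 16.3 to 263 at day 28 (median 39.9) and from 15.31 to 113.5 at day 60 (median 28.75). In both, the top of the range was several-fold lower at day 60 than at day 0, and the bottom was lower by less. IFI6 had the smallest p of all members at day 28, with a fall by 1.36 ± 0.28 (2.56-fold lower, edgeR adjusted p = 5.53e-05), and RSAD2 fell by 1.57 ± 0.39 (edgeR adjusted p = 0.000881) in 22 of 26 animals. CMPK2, the kinase gene beside RSAD2, fell by 1.01 ± 0.28 (edgeR adjusted p = 0.00289).

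MX1, a dynamin-like GTPase that traps viral ribonucleoprotein, ranged from 165.6 to 5339 CPM at day 0 (median 760.4), from 165.9 to 2271 at day 28 (median 497) and from 147.5 to 1365 at day 60 (median 407). The bottom of the range was nearly level across these days. MX1 fell by 0.84 ± 0.20 at day 28 (edgeR adjusted p = 0.000565), and MX2, its relative, fell by 1.12 ± 0.29 at day 28 (edgeR adjusted p = 0.00188) and by 1.46 ± 0.30 at day 60. OAS2, which makes the second messenger that activates RNase L, had medians of 1145 CPM at day 0 (208 to 7719), 755.5 at day 28 (206 to 4722) and 493 at day 60 (148.6 to 2039), and fell by 0.96 ± 0.24 at day 28 (edgeR adjusted p = 0.00116). OAS1Y fell by 0.99 ± 0.39 at day 28 (edgeR adjusted p = 0.043) and by 1.81 ± 0.42 at day 60 (edgeR adjusted p = 0.000484). The OAS1 genes are neighbouring copies, so the counts of OAS1X, OAS1Y and OAS1Z may depend on how shared reads were assigned, which was not tested.

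The IFIT genes code for proteins that bind foreign RNA ends. IFIT5 fell by 0.87 ± 0.19 at day 28 in 23 of 26 animals (edgeR adjusted p = 0.00017), from a median of 117.4 CPM at day 0 (37.8 to 353) to 66.27 (31.5 to 250.3). IFIT2 fell by 1.20 ± 0.31 (edgeR adjusted p = 0.00146) and IFIT3 by 0.84 ± 0.22 (edgeR adjusted p = 0.0021). IFI44L, an interferon-induced gene often used in blood signatures, fell by 0.93 ± 0.25 (edgeR adjusted p = 0.00299), and SAMD9, a restriction factor for poxviruses, fell by 0.41 ± 0.12 (edgeR adjusted p = 0.00701). IFI44 and OAS1X were not called. The log2 fold change of IFI44 was -0.53 ± 0.42 at day 28 and 0.24 ± 0.42 at day 60, and OAS1X had a median of 0.398 CPM at day 0 and 0.508 CPM at day 28.

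Of the remaining members with ubiquitin, ADP-ribosyl or regulatory roles, 8 of 9 were called lower at days 28 and 60 and 3 of 9 at day 45. XAF1, a promoter of apoptosis, fell by 0.64 ± 0.15 in 23 of 26 animals at day 28 (edgeR adjusted p = 0.000366). The other 7 fell by less, from 0.20 ± 0.09 for TRIM21, an antibody receptor inside cells, to 0.53 ± 0.13 for DTX3L, the ubiquitin ligase partner of PARP9. SP110, a nuclear body protein, had medians of 164.6 CPM at day 0 (101.9 to 338), 166.5 at day 28 (124.7 to 243) and 154 at day 60 (111.5 to 225). Its log2 fold change was -0.04 ± 0.07 at day 28 (edgeR adjusted p = 0.683). CXCL10, the chemokine that draws CXCR3-bearing lymphocytes, had medians of 9.62 CPM at day 0 (4.44 to 185), 10.9 at day 28 (4.30 to 34.17) and 9.67 at day 60 (4.77 to 24.4). Its log2 fold change at day 28 was -0.21 ± 0.28 (edgeR adjusted p = 0.626), with 13 of 26 animals lower. Its top at day 0 stood far above the tops at days 28 and 60, but at day 13 it still reached 115.28 CPM in animal 16.

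**Figure D3:**
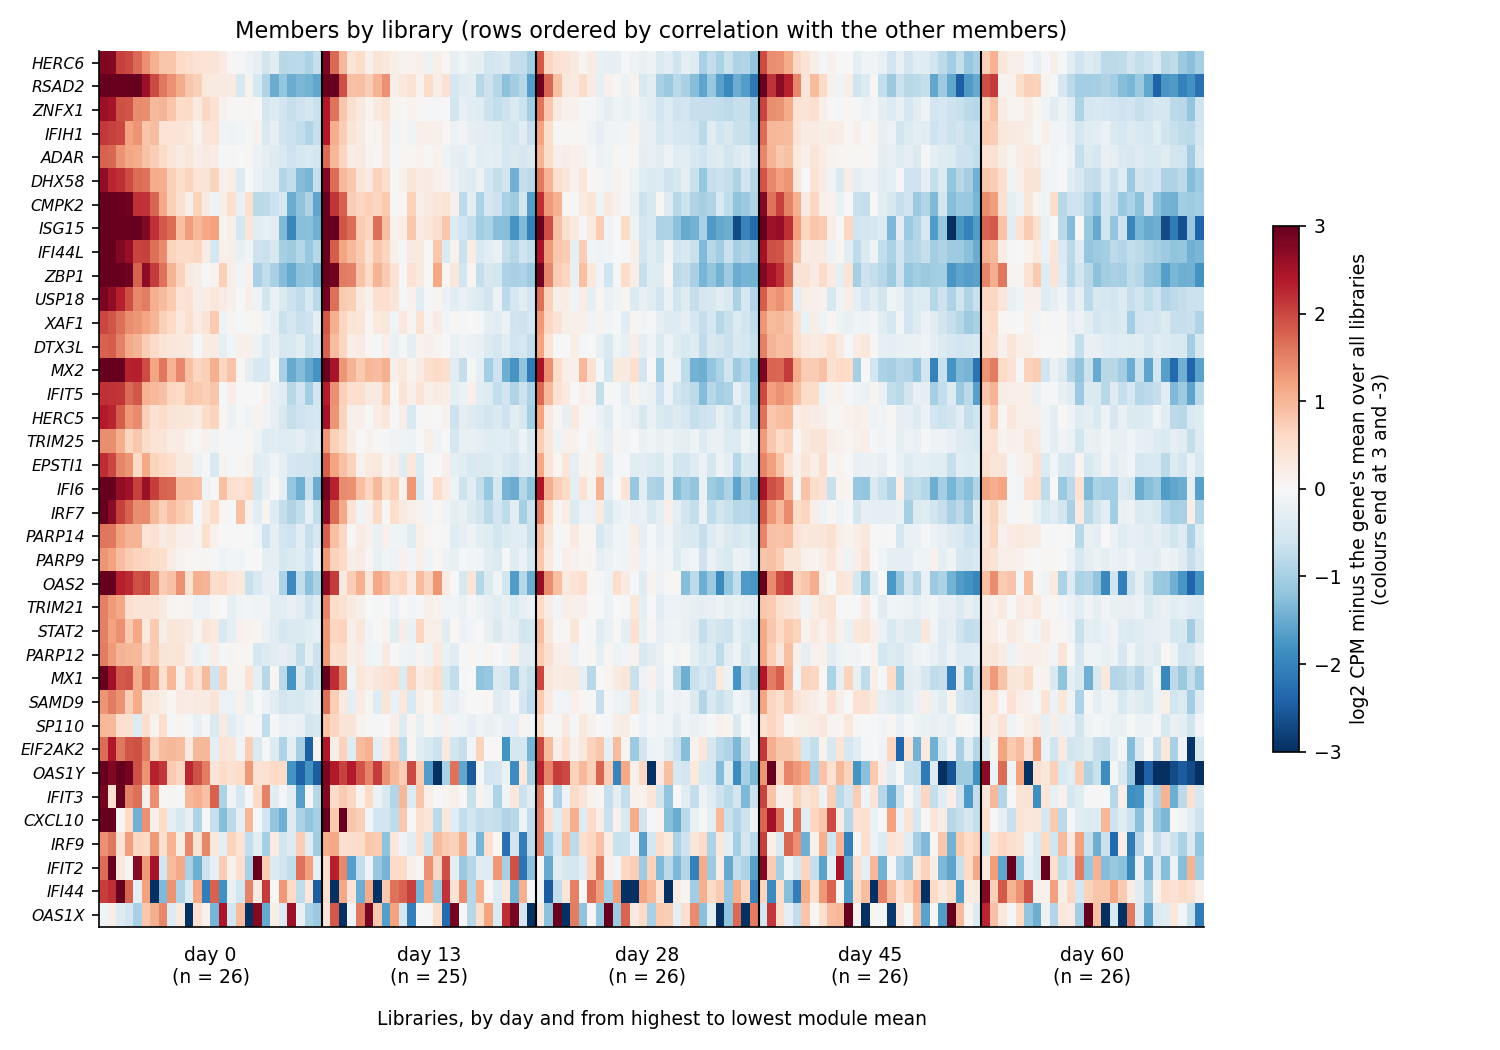
Level of each of the 37 members (y axis) in each library (x axis, by day and from highest to lowest module mean within a day), coloured by the difference of log2 CPM from the gene's mean over all libraries, with genes ordered by their correlation with the other members and colours that end at 3 and -3. Most members are red together in the same few libraries, whereas IFIT2, IFI44 and OAS1X at the foot do not follow the columns.

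Members were called lower than at day 0 in both disease labels, but not every supplement group had a lower module mean. In healthy cattle 13 of 37 members were called lower at day 28 and 0 higher (10.22% of all genes tested were called lower), among them ISG15 at -1.52 ± 0.56, IFI6 at -1.40 ± 0.40 and RSAD2 at -1.31 ± 0.56. The module mean was lower in 9 of 12 healthy animals, by a mean of -0.58 ± 0.61 (SD). This was 4 of 4 animals of AAC and of COMBO but 1 of 4 of INR, and the mean change of the INR healthy cattle was -0.10 ± 0.81 (SD) at day 28, 0.21 ± 1.15 at day 45 and 0.12 ± 1.101 at day 60. In BRD cattle 30 members were called lower and 0 higher at day 28 (10.3% of all genes lower), with ISG15 at -1.91 ± 0.52, RSAD2 at -1.84 ± 0.53 and IFI6 at -1.32 ± 0.37, and the module mean was lower in 12 of 14 animals by a mean of -0.66 ± 0.75 (SD). Between the labels, the change from day 0 to day 28 was called different in 0 of 37 members and 0% of all genes. At an unadjusted p below 0.05 in edgeR was 1 member (OAS1X), and 863 of the 18937 genes tested. At day 60 the healthy cattle had 3 members called lower (IFI6, IFIT2 and OAS1Y) and 0 higher, against 5.81% of all genes lower. The BRD cattle had 31 lower and 0 higher, against 10.17% of all genes lower. Again 0 members differed between the labels in their change by edgeR, as for 0% of all genes. At an unadjusted p below 0.05 were 2 members, and 596 of the 18937 genes tested. At day 45, 0 members were called in healthy cattle by edgeR, against 8.55% of all genes called in either direction. At an unadjusted p below 0.05 was 1 member, and 3407 of the 18937 genes tested. In BRD cattle 23 were lower (10.7% of all genes) and OAS1X was higher (11.8% of all genes higher). The labels differed in this change in 0 of 37 members by edgeR, as in 0% of all genes. At an unadjusted p below 0.05 were 2 members, and 801 of the 18937 genes tested.

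Calls between neighbouring days were few and differed between tools. From day 0 to day 13 the module mean was lower in 13 of 25 animals and 0 members were called in edgeR, against 32.23% of all genes, with 3 members at an unadjusted p below 0.05 (HERC5, ZNFX1 and IRF7, against 36.5% of all genes) and the same number called by DESeq2. In limma voom with the animal as a block 6 members were called lower, and with each animal left out the count ran from 1 (without animal 6, 10, 18, 23 or 54) to 23 (without animal 16), with 3 without animal 34 and 13 without animal 17. From day 13 to day 28 0 members were called by edgeR (1.62% of all genes), 25 had an unadjusted p below 0.05 (13.25% of all genes), and DESeq2 called IFI6, ISG15, OAS2 and RSAD2. From day 28 to day 45 DTX3L and PARP14, neighbours on the chromosome, rose by 0.35 and 0.32 (edgeR adjusted p = 0.0514 and 0.0603), against 28.2% of all genes called, and the module mean was higher in 18 of 26 animals. In limma voom, which also called 2, the count was 0 without animal 3 or animal 48. From day 45 to day 60 edgeR called 0 members (7.66% of all genes), 8 had an unadjusted p below 0.05 (19% of all genes) and DESeq2 called CXCL10. For days 0 to 13, 13 to 28 and 45 to 60, limma voom with the animal block gave 8, 7 and 8 members at an unadjusted p below 0.05. With no block in edgeR these numbers were 9, 17 and 18.

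Markers of blood cell types also changed over the same days. The summed CPM of 5 monocyte markers (CSF1R the most abundant, none at 0) had a median of 1070 at day 0 and 608 at day 28, and 4 of 5 were called lower. The sum of 7 neutrophil markers (of 8 listed, S100A12 the most abundant, none at 0) had medians of 1966 and 1461, with 4 called lower and 1 higher. NK markers (PRF1 the most abundant) had 4 of 6 called lower at day 28 and none lower at day 60. The erythroid sum (HBA1 the most abundant) had medians of 226 at day 0, 6085 at day 13, 2400 at day 28 and 1925 at day 60. Of 8 T cell markers 0 were called by edgeR at days 13, 28 or 60. The median sums of B cell (2143 against 1961), plasmacytoid dendritic cell (479 against 391) and platelet markers (617 against 419) were higher at day 28 than at day 0. So were those of plasma cell (733 against 554) and gamma-delta T cell markers (3.30 against 1.28), and the eosinophil sum was lower (442 against 499). Of all genes tested, 17.3% were called lower at day 28 and 18.5% higher. The part of these cell types in the fall of the interferon-stimulated genes was not tested. Over all libraries, which include repeated bleeds of the same animals, the mean log2 CPM of the monocyte markers had r = 0.1 with the module mean, the neutrophil markers 0.232 and the erythroid markers -0.359. This r was 0.229 for B cell, 0.11 for plasmacytoid dendritic cell, -0.283 for NK and -0.353 for T cell markers.

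Between BRD and healthy cattle edgeR called no member on any day, and DESeq2 called 1 at day 0 and 1 at day 60. The contrast was the unweighted mean over the 3 supplements of BRD minus healthy, in an edgeR fit of all libraries with a mean for each of 30 combinations of supplement, label and day. At day 0, 36 of 37 members had a positive log2 fold change with a median of 0.64, 24 had an unadjusted p below 0.05 (7.11% of all genes) and 0 were called, against 0.0158% of all genes. The number at an unadjusted p below 0.05 was 8 in limma voom with correlation within animals and 8 with the day 0 libraries alone, and 4, with a median of 0.31, without the BRD cattle of COMBO. IFIT3 ranged from 39.02 to 655 CPM in BRD cattle (median 155.8) and from 23.8 to 236 in healthy cattle (median 73.8). The ranges overlapped, and the top of the BRD range lay above all healthy cattle. IFIT3 had the smallest p of the members, with a log2 fold change of 1.19 ± 0.34 (unadjusted p = 0.000663, edgeR adjusted p = 0.22), and was the one member that DESeq2 called. The median log2 fold changes at days 13, 28, 45 and 60 were 0.35, 0.40, 0.12 and -0.11, with 0, 3, 1 and 1 members at an unadjusted p below 0.05, where the shares of all genes were 3.78%, 8.63%, 4.22% and 3.64%. Within the pens that held both labels the medians were -0.29, 0.18, -0.22 and -0.42, with the sign turned at days 13 and 45. The pen here was the single label each animal kept on all days, although steers were rotated between pens. The 3 members at an unadjusted p below 0.05 at day 28 became 10 with the libraries of that day alone. They became 1 in limma voom with correlation within animals and 0 within the pens that held both labels. The share of all genes called was 0% at days 13 and 45 and 0.00528% at days 28 and 60. DESeq2 called IFIT2 at day 60 and no member on the other 3 days.

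The count of calls at day 0 depended on 1 animal, and the levels varied by pen. Without COMBO animal 16, whose day 0 module mean of 6.28 was among the lower values of the BRD cattle, 10 members were called higher in BRD cattle, with a median log2 fold change of 0.81, and without any other animal 0 were. All BRD cattle of COMBO were in 1 pen and all healthy cattle of COMBO in another, so pen and label cannot be told apart there. Within the pens that held both labels the median log2 fold change at day 0 was 0.00, with 0 members called by edgeR and 2 at an unadjusted p below 0.05. In pen 3 (INR, 2 BRD and 1 healthy) the day 0 module mean ran from 7.83 to 8.52, and in pen 4 (INR, 1 BRD and 3 healthy) it ran from 5.83 to 6.02. These 2 pens of 1 supplement did not overlap at day 0, and each held both labels. By the same pen labels they did not overlap at day 28 either, but they did at days 45 and 60 and at day 13 (6.52 to 7.06 and 6.00 to 6.82). Each animal had a single pen label for all days, although steers were rotated between pens. The label may therefore not be the pen an animal was in on a later day. Pen 7, all BRD cattle of INR, ran from 6.68 to 7.55 at day 0.

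**Figure D4:**
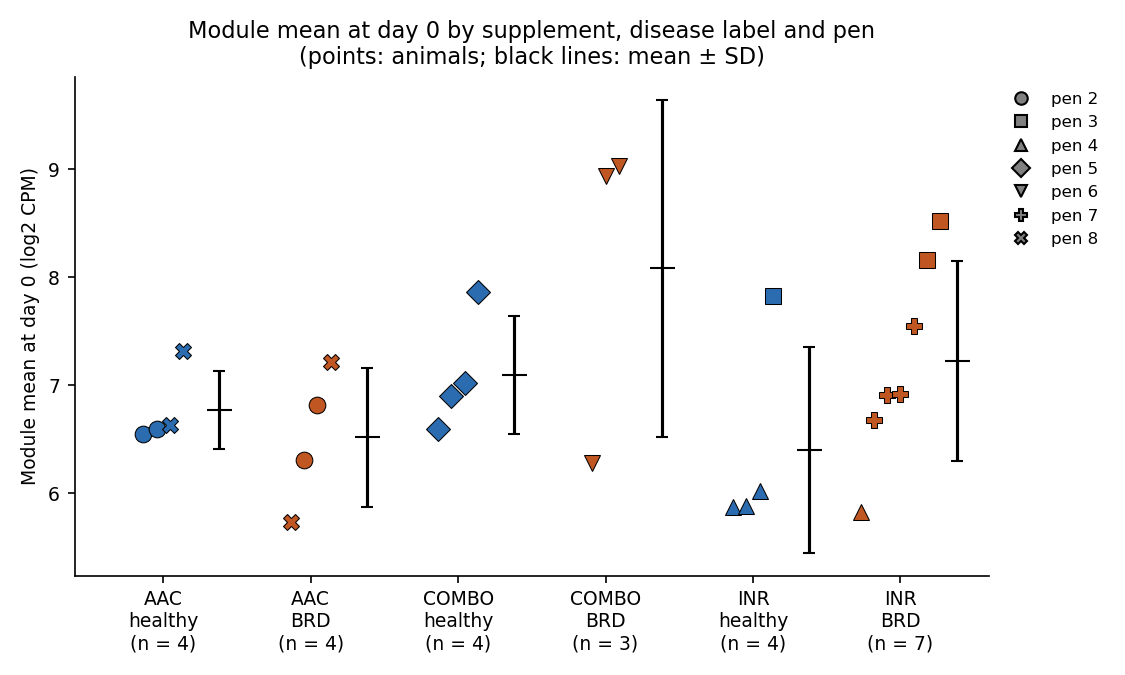
Day 0 module mean (mean log2 CPM, y axis) of each animal by supplement and disease label (x axis), with the pen as the symbol, healthy cattle in blue, BRD cattle in orange and black lines for the mean ± SD of each group. Squares (pen 3) lie between 7.83 and 8.52 and upward triangles (pen 4) between 5.83 and 6.02, in both labels.

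Supplements were first compared in healthy cattle. In the 15 comparisons (3 pairs of supplements on 5 days) edgeR called 0 members, 37 of the 555 member tests (6.67%) had an unadjusted p below 0.05 against 7.46% over all genes, and DESeq2 made 1 call (CXCL10, AAC against INR at day 13). The medians of the members' log2 fold changes ran from -0.68 (COMBO against INR at day 60) to 0.52 (COMBO against INR at day 0). At day 0 the healthy groups' module means were 6.77 ± 0.36 for AAC, 7.09 ± 0.54 for COMBO and 6.40 ± 0.95 for INR (SD, n = 4 each). Over the same 15 comparisons 0.0383% of the tests of all genes were called. The 37 member tests at an unadjusted p below 0.05 became 80 without INR animal 10 and 48 by DESeq2. They became 18 with the libraries of both labels in the fit, so this number depended on the animals and the fit.

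In BRD cattle 33 of the member tests were called over the 15 comparisons, and 29 of these were AAC against COMBO at day 0, all lower in AAC, where 7.62% of all genes were called lower. Over the 15 comparisons 1.55% of the tests of all genes were called. The fit pooled the spread over all 70 BRD libraries without a term for the animal, so repeated bleeds counted as separate libraries. Its SE and p therefore do not measure the spread among only the animals compared on a day. A fit of the day 0 libraries alone was not run for the supplements. The module mean was 5.73, 6.31, 6.82 and 7.21 in the AAC animals 9, 21, 31 and 41, and 6.28, 9.03 and 8.93 in the COMBO animals 16, 18 and 54. COMBO animals 18 and 54 stood apart from all AAC animals, and animal 16 lay among them. The 7 BRD cattle of INR ran from 5.83 to 8.52 with a median of 6.92, and overlapped the AAC animals and COMBO animal 16.

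MX1 was 362, 317, 373 and 1120 CPM in the AAC animals (in the order 9, 21, 31, 41) and 581, 5339 and 3233 CPM in the COMBO animals (16, 18, 54), with a log2 fold change of -2.49 ± 0.69 (edgeR adjusted p = 0.0189). IFI44L was 66.5, 75.4, 82.7 and 191.4 CPM in AAC and 86, 1332 and 1170 CPM in COMBO, with a log2 fold change of -3.06 ± 0.80 (edgeR adjusted p = 0.0132). CXCL10 was 6.13, 8.25, 7.57 and 9.91 CPM in AAC and 5.35, 184.6 and 142 CPM in COMBO, with a log2 fold change of -3.80 ± 0.80 (edgeR adjusted p = 0.00257). In each of these the groups overlapped through COMBO animal 16 alone. SP110 was 122.6, 101.9, 126.3 and 163.9 CPM in AAC and 165.3, 338 and 332 CPM in COMBO, so the groups did not overlap, although animals 41 and 16 were close. It had the smallest p of the members, with a log2 fold change of -1.12 ± 0.23 (edgeR adjusted p = 0.00249). EPSTI1, an epithelial stromal interaction gene induced by interferon, had a log2 fold change of -1.84 ± 0.45, and USP18 one of -2.18 ± 0.59 (edgeR adjusted p = 0.00819 and 0.0172). TRIM21, IRF7, CMPK2 and TRIM25 completed the 10 members of smallest p, at -1.11, -2.12, -3.0 and -1.16, with edgeR adjusted p from 0.021 to 0.026.

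**Figure D5:**
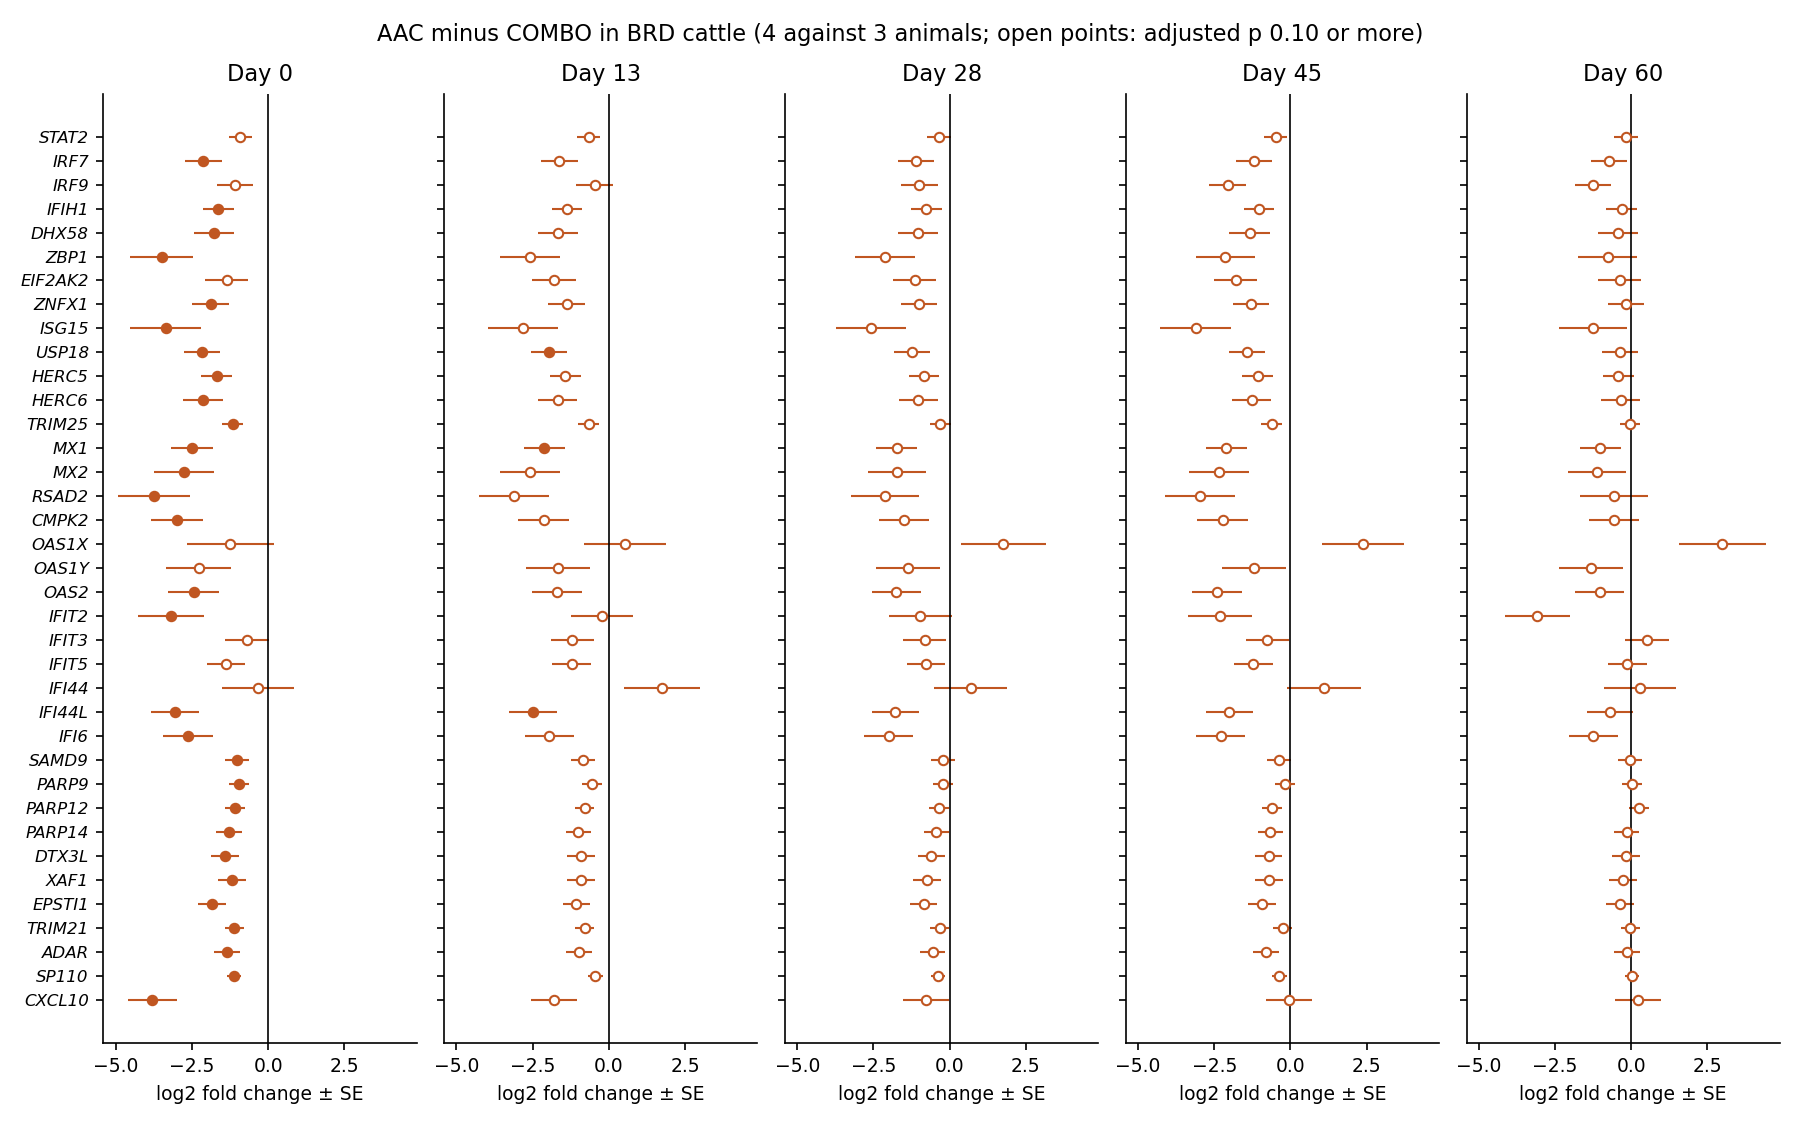
Log2 fold change of AAC minus COMBO (x axis) in BRD cattle, 4 against 3 animals, for each of the 37 members (y axis, by role), with 1 panel for each day, bars of 1 SE and filled points for an adjusted p below 0.10 in edgeR. All 37 points lie left of 0 at day 0 and 29 are filled, 3 are filled at day 13, and none is filled later, when 35, 35 and 30 points lie left of 0 at days 28, 45 and 60.

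The count of 29 rested on few animals. It was 3 without animal 18 (CXCL10, IFI44L and SP110), 7 without animal 54, 9 without animal 21 and 11 without animal 9, and 33 without animal 16. The median log2 fold change moved less, from -1.69 to -1.34, -1.38, -1.58 and -1.48 without animals 18, 54, 21 and 9. In these fits 27, 26, 30 and 28 members had an unadjusted p below 0.05. With all animals 32 members had one, as did 4238 of the 18477 genes tested. Markers of B cells moved with this comparison: 5 of 6 were called lower in AAC, against 7.62% of all genes. Their summed CPM (MS4A1 the most abundant, none at 0) was 954 to 1459 in AAC and 2121 to 3302 in COMBO, without overlap. The list for plasmacytoid dendritic cells, a main source of interferon-alpha, had 2 of 5 called lower, with sums of 208 to 282 in AAC and 432 to 979 in COMBO, and its most abundant gene was SPIB, which B cells also express. Of the monocyte markers 2 of 5 were called higher in AAC (5.27% of all genes), with sums of 920 to 2554 against 510 to 982. Median sums were also higher in AAC for neutrophil (2752 against 1876), T cell (1194 against 940) and NK markers (218 against 192). So were those of erythroid (605 against 187) and eosinophil markers (704 against 386). They were lower in AAC for plasma cell (569 against 648), platelet (300 against 455) and gamma-delta T cell markers (1.60 against 1.78). In each of these lists the ranges of AAC and COMBO overlapped. The part of these cell types in the difference was not tested. Day 0 was the day of enrollment into pens, and of the supplements only the drench of COMBO before shipment had been given on an earlier day. The BRD cattle of COMBO went to 1 pen and those of AAC to 2 others, so the pen groups and the supplement groups coincide.

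AAC against COMBO in BRD cattle gave 0 member calls in edgeR at days 28 (0.373% of all genes), 45 (0.0433%) and 60 (0.0812%), with 7, 18 and 3 members at an unadjusted p below 0.05, where the shares of all genes were 13.2%, 7.27% and 11.5%. The median log2 fold changes on these days were -0.85, -1.19 and -0.34, after -1.69 at day 0 and -1.38 at day 13, with 35, 35 and 30 of 37 members negative. At day 13 USP18, IFI44L and MX1 were lower in AAC than in COMBO, with log2 fold changes of -1.95, -2.49 and -2.12 (edgeR adjusted p = 0.06, 0.0712 and 0.0765), against 3.68% of all genes called lower. On that day 25 members and 3559 of the 18477 genes tested had an unadjusted p below 0.05. MX1 at day 13 was 394, 421, 415 and 550.3 CPM in the AAC animals and 4473, 815 and 415 CPM in the COMBO animals 16, 18 and 54. The day 13 values of COMBO overlapped those of AAC but for animals 16 and 18. Without animal 16 0 members were called by edgeR, as without AAC animal 9, 21 or 31, while 9 were called without COMBO animal 54. The count was 11 without animal 40 and 5 without animal 43. Both are INR steers outside this comparison, whose libraries share its fit. At day 0 CXCL10 was higher in COMBO than in INR by a log2 fold change of 3.43 ± 0.64 (edgeR adjusted p = 0.00335), where 0.671% of all genes were called higher. CXCL10 ranged from 4.99 to 18.5 CPM in the 7 INR animals. It was called without each animal in turn, and without animal 16 the count in this comparison was 23 members.

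The highest libraries mostly stood far above the other bleeds of the same animal. COMBO animal 18 at day 0 had the highest module mean, 9.03, with 33 of 37 members at the animal's own highest, and ISG15 at 2252 CPM against a median of 365 on its other days. COMBO animal 54 at day 0 had 8.93, with 36 of 37 members at their highest and RSAD2 at 1417 CPM against 47. COMBO animal 16 peaked at day 13 instead, at 8.83, with 36 of 37 members at their highest. Its RSAD2 was 1497 CPM on that day and 15 in the median of its other days, a 99.9-fold ratio, and its ISG15 was 1335 against 25.6 CPM, a 52.2-fold ratio. In the same library MX1 was 4473 against 506 CPM, CXCL10 115.28 against 6.54 and SP110 305 against 170.0, so the rise was shared by members of very different range. INR animal 43 at day 0 had 8.52, with 34 of 37 members at their highest, but its CXCL10 was 12.8 CPM against a median of 18.55 on the other days. COMBO animal 18 at day 45 had 8.39. All 5 of these libraries were of BRD cattle. The lowest were INR healthy animal 7 at day 60 (5.63), INR BRD animal 29 at day 13 (5.66), INR BRD animal 40 at day 60 (5.66, the library that the study's methods name for lower RNA integrity), and AAC healthy animal 46 at days 28 (5.70) and 60 (5.71).

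Most members rose and fell together across libraries. Over the 666 pairs of members the median Pearson r of log2 CPM was 0.839 (-0.17 to 0.980) across the libraries, which share animals, days and library depth. In 24 of 37 members r with the mean of the others was at least 0.9. It was below 0.5 in 3, namely IFI44 (0.0455), OAS1X (0.0232) and IFIT2 (0.369), and IRF9 had 0.503. IFI44, OAS1X and OAS1Y also had the largest SD within groups of the same supplement, label and day, at 1.97, 1.72 and 1.58 log2 units. SP110, TRIM21 and PARP9 had the smallest, at 0.272, 0.350 and 0.392. Several members are neighbours in the RefSeq annotation of ARS-UCD2.0, where all 38 symbols were matched: PARP9, DTX3L and PARP14; MX2 and MX1; RSAD2 and CMPK2; OAS2 and the OAS1 copies; IFIT2, IFIT3 and IFIT5; IFI44 and IFI44L; and HERC5 and HERC6. Among the 3 IFIT genes lay 1 other coding gene, and the other groups had none between their members. IFI44 and IFI44L, although neighbours, had very different patterns, whereas RSAD2 and CMPK2 both fell after day 0. The 10 genes outside the set whose log2 CPM followed the module mean most closely were CMTR1 (r = 0.960), UBA7 (0.952), RTP4, TOPORS, PARP10, IFI16, PML, LOC618409, TDRD7 and PNPT1 (0.928).

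Genes of the wider interferon pathway were called in both directions at day 28, when 17.3% of all genes were lower and 18.5% higher. In a list of 45 other interferon-stimulated genes, 40 were tested and 23 were called lower at day 28 and 0 higher, with SIGLEC1, a lectin of monocytes and macrophages, at -1.49 ± 0.34 and ISG20, an exonuclease, at -1.0 ± 0.18 (edgeR adjusted p = 0.000408 and 9.82e-06). Of 21 upstream genes tested (of 24 listed) 6 were lower and 3 higher at day 28. TLR7, an endosomal sensor of single-stranded RNA, fell by 0.53 ± 0.08, from a median of 107.01 CPM to 78.2, whereas IFNAR1 had a log2 fold change of 0.23 ± 0.28 (edgeR adjusted p = 0.59). Of 11 negative regulators 4 were lower, led by SOCS1, an inhibitor of JAK kinases, which fell by 1.16 ± 0.17 (edgeR adjusted p = 1.92e-08). In the list of interferon-gamma and guanylate-binding protein genes, which also holds SOCS1, 3 of 19 were lower (SOCS1, FCGR1A and IDO1) and CIITA was higher. Of 9 interferon genes listed only IFNG and IFNB1 passed the filter, with day 0 medians of 0.214 and 0.057 CPM, and neither was called by edgeR at days 13, 28 or 60.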

How the data were processed

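Reads were trimmed by the authors (Trimmomatic 0.39), aligned to the bovine assembly ARS-UCD1.3 (HISAT2) and assembled into transcripts (StringTie 2.2.0) (versions per the submitters' processing notes). The values the authors deposited are whole-number counts per gene without normalization, made from read coverage and transcript length by prepDE, so they are not direct tallies of reads.

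Counts were tested in R 4.3.3 with edgeR 4.0.16: TMM factors, 1 common dispersion, filterByExpr, quasi-likelihood F-tests and Benjamini-Hochberg adjustment over all genes of a comparison, called below 0.10. Each SE of a log2 fold change was derived from that test, as the absolute log2 fold change divided by the square root of F. Days were compared with animal as a block, disease labels over 30 group means, and supplements within each label over 15 group means (18269 genes in healthy cattle, 18477 in BRD cattle). The edgeR fits over group means had no term for the animal, so repeated bleeds of a steer counted there as separate libraries. The biological coefficient of variation was 39.0% over the 30 means and 28.4% with the animal block. Animals are separate steers, and days are repeated bleeds of them. The numbers pair the libraries because they are the same animals: deviations of same-animal libraries had a median r of 0.371 (256 pairs), against -0.010 between animals, and no 2 libraries were identical. Alternatives used DESeq2 1.42.0, limma 3.58.1 voom and others given below. Plots were made in matplotlib 3.10.9 under Python 3.11.15.

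The members, the other gene lists and the tests were chosen with earlier results of these data known. Members named are those listed by role, up to 10 of smallest p among the calls of a comparison, and the 3 of largest and smallest SD within groups. Others named were chosen after their values were seen. The 10 most similar genes were ranked by Pearson r with the module mean, and the 5 highest and 5 lowest libraries by module mean. No sequences were used here.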

Additional observations from a re-analysis of the deposited data

Results flagged for a closer look

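In groups of 4 to 10 libraries of 1 supplement, label and day, the module mean of a single animal stood apart in 2 of the 24 groups tested, where chance gives about 1 in 20. INR healthy animal 10 had 7.83 at day 0, and the other 3 animals of that group had 5.87 to 6.02, a gap of 0.924 of the group's range. Animal 10 was in pen 3, whose other animals at day 0 were also high. AAC healthy animal 48 had 7.31 at day 0, and the other 3 had 6.55 to 6.63, a gap of 0.891 of the range.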

How the results depend on the processing

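The fall after day 0 held under each alternative and each animal left out that was run: 31 to 33 members lower at day 28, 15 to 25 at day 45 and 30 to 34 at day 60. Counts near 0 moved. From day 0 to day 13 the count was 3 by DESeq2, 4 with no replicate block, 5 without the BRD cattle of COMBO, 6 by limma voom and 1 to 23 when that fit left out each animal. From day 13 to 28 it was 4 by DESeq2. From day 28 to 45 it was 0 at an FDR of 0.05, 1 with no replicate block, 6 without the BRD cattle of COMBO, and 0 to 4 in limma voom with each animal left out. From day 45 to 60 it was 1 by DESeq2, with no replicate block and without the BRD cattle of COMBO. BRD against healthy gave 1 at day 0 by DESeq2 and without the BRD cattle of COMBO, 0 to 10 with each animal left out, and 1 at day 60 by DESeq2. AAC against COMBO in BRD cattle at day 0 gave 3 to 33 with each animal left out. Over 15 supplement comparisons, healthy cattle gave 1 by DESeq2 and 0 to 1 with each animal left out. BRD cattle gave 8 to 57, and 5 for the change from day 0 with the animal as replicate block. Single members with an animal left out gave 518 values, all of AAC against COMBO in BRD cattle at day 0. Of these 20.5% lost their call, 4 gained one and 406 kept direction and call. The other alternatives gave 775 values, of that comparison and of days 28 and 60 against day 0. Of these 8 lost a call, 2 gained one and 763 kept both. Calls of single members between days were not scored with an animal left out. Among single members the direction reversed for OAS1X at day 28 by DESeq2 (log2 -0.026), IFI44 at day 60 with no replicate block (-0.16), and AAC against COMBO in BRD cattle at day 0, with each animal left out, for IFIT3 (-1.15 to 0.84, above 0 without animal 18) and IFI44 (-0.76 to 0.0938, above 0 without animal 9). The median log2 fold change of BRD against healthy turned from 0.35 to -0.29 at day 13 and from 0.12 to -0.22 at day 45 with pen in place of supplement, and to -0.07 and -0.06 without the BRD cattle of COMBO. The median over the 15 comparisons in BRD cattle was -0.37, and 0.24 for the change from day 0 with the replicate block. The causes were not tested. The replicate block changed no other count by over 1.5 times. The limma voom fit of the days with the animal as a block and the fits without the BRD cattle of COMBO were chosen after seeing the data. Leaving out animals from the edgeR day fit, and a search for promoter motifs, were not run. Groups of 3 and 4 animals and pens that coincide with groups limit the supplement comparisons.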

Other observations

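Genes outside the set were also compared between AAC and COMBO among BRD cattle at day 0. Of 40 other interferon-stimulated genes tested 20 were called lower in AAC by edgeR and 0 higher, against 7.62% of all genes called lower, with LY6E, which codes for a membrane protein of the Ly6 family, at -1.93 ± 0.42 (edgeR adjusted p = 0.00345), RTP4 at -3.23 ± 0.84 and SIGLEC1 at -3.64 ± 1.06. Of 21 upstream genes 3 were lower, among them CGAS, the cytosolic DNA sensor, at -2.16 ± 0.51 and IRF3 at -0.81 ± 0.24, and 2 were higher (TMEM173 and IKBKE). Of 19 interferon-gamma and guanylate-binding protein genes 4 were lower, with GBP5 at -2.34 ± 0.69 (edgeR adjusted p = 0.0272). As for the members, COMBO had 3 animals here, in 1 pen, and day 0 was the day of enrollment, when only the drench of COMBO before shipment had come earlier.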
